A study of Mus musculus with 4 samples.

Results

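Ligand-gated ion channels carry fast transmission by GABA, glycine, glutamate, acetylcholine and serotonin, and each is built from several subunits encoded by separate genes. The 39 subunit genes described here were taken by symbol from the 42458 rows of a count table of the mouse spinal cord. The choice was made with earlier results of these data known. They comprise 10 GABA-A, 4 glycine, 4 AMPA, 6 NMDA, 5 kainate and 9 nicotinic acetylcholine subunit genes, and Htr3a of the serotonin 5-HT3 receptor. Not every subunit gene of these receptors belongs to the set.

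The study sampled 4 C57BL6 mice in which cerebrospinal fluid-contacting neurons (CSF-cNs), which surround the cord's central canal, had been labelled with red fluorescent tdTomato. AAV2-CAG-tdT, an adeno-associated virus with the broadly active CAG promoter, had been injected into a brain ventricle of every mouse. Live tdTomato-positive cells were sorted from dissociated slices that held the canal, and 50 cells of each mouse gave 1 polyA RNA library. The mice form 1 group with no untreated arm, their age is not stated in the labels, and the design therefore allows levels, spreads and within-mouse ratios but no comparison between conditions.

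GABA-A, glycine, nicotinic and 5-HT3 receptors are pentamers of the Cys-loop family, whereas AMPA, NMDA and kainate receptors are tetramers. GABA-A receptors usually join alpha and beta subunits with a gamma or delta subunit, and the glycine beta subunit joins alpha subunits and ties the receptor to the scaffold protein gephyrin. AMPA subunits carry most fast excitation, NMDA receptors need the GluN1 subunit, and kainate subunits GluK4 and GluK5 reach the cell surface only together with GluK1 to GluK3. CSF-cNs are themselves GABAergic and are known to answer GABA, glycine, glutamate and acetylcholine.

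The libraries held 115479640, 95186395, 83007030 and 85626022 counts in mice 1, 2, 3 and 4, the order kept below. A limit of 3 counts corresponded to 0.0278 to 0.0348 CPM (counts scaled to a library of 1e6 counts) in a library. The label was unevenly present: transcripts of the viral tdTomato reached 0.0463, 0.621, 157 and 1709 CPM. The 9 CSF-cN markers summed to 20.3, 12.9, 941 and 846 CPM, with P2rx2 at no count in any library. All 10 microglia markers were called above 10 CPM and summed to 41176 to 68628 CPM, so microglial transcripts were abundant in every library. Oligodendrocyte markers summed to 15065 and 19260 CPM in mice 1 and 3, but to 238 and 459 CPM in mice 2 and 4. In such pooled libraries, fewer cells of a type and less RNA per cell cannot be told apart.

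Of the 39 subunit genes, 19 reached 1 CPM in at least 1 mouse. Another 5 were counted at lower levels, namely Gabrb2, Grin2a, Grin2b, Grin2d and Chrnb2. A further 5 had 1 to 4 counts in all libraries together: Gabre, Gria1, Gria3, Grin3a and Chrnb4. No count was found for the remaining 10, which were Gabra5, Gabrd, Glra2, Glra3, Grin2c, Chrna2, Chrna3, Chrna6, Chrnb3 and Htr3a. Over the 4 libraries together, 3 counts amount to 0.00795 CPM, the level that a count of 0 allows by counting error alone. Transcripts of the sorted cells that never entered a library are not covered by it. The minimum of 10 counts used for testing was passed by 24 of the 39 genes, most of them through mice 3 and 4 alone, so counts over these 24 are given as a description.

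**Figure D1:**
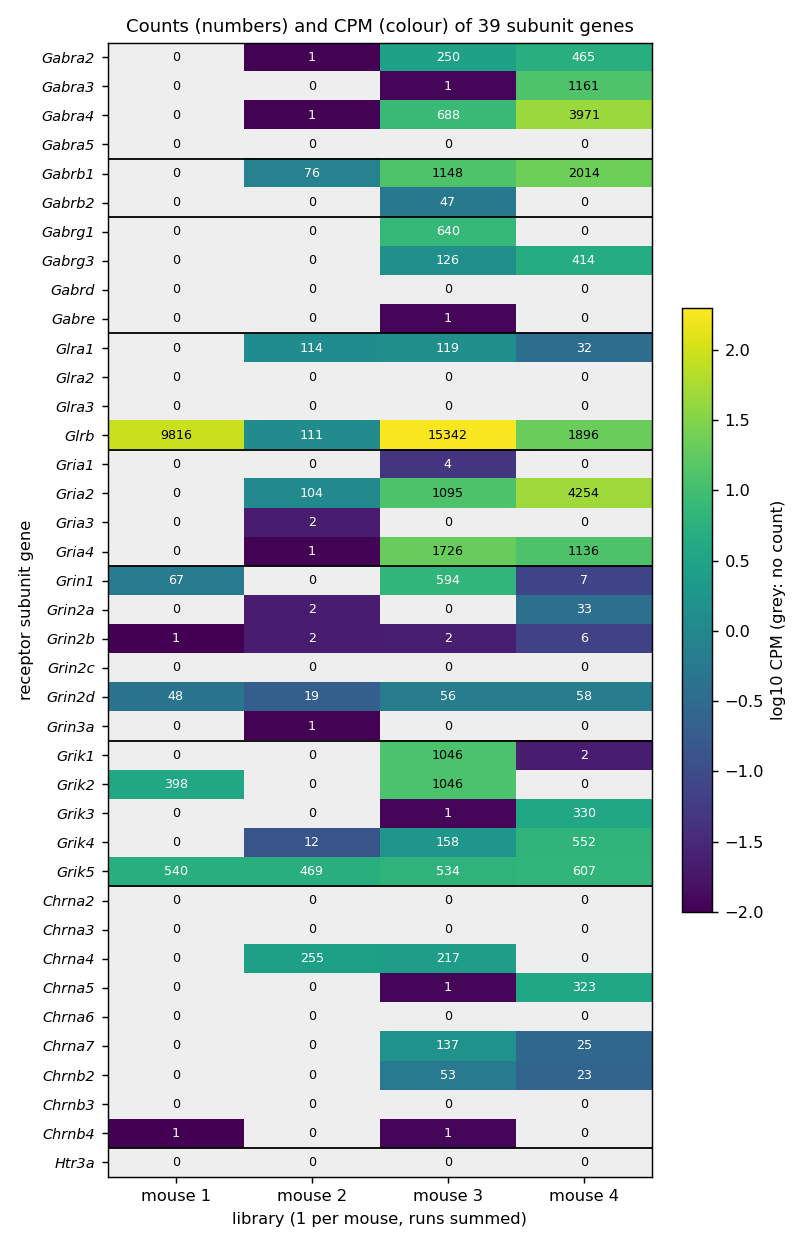
Counts of the 39 subunit genes (rows, grouped by family) in the libraries of the 4 mice (columns), with both runs of a mouse summed. Colour gives log10 CPM and grey marks no count. Grik5 fills its row with 469 to 607 counts, whereas most GABA-A and AMPA rows are grey or dark in mice 1 and 2.

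The number of subunit genes above 3 counts was 5, 8, 20 and 19 of 39 in mice 1, 2, 3 and 4. For scale, 76.9%, 75.8%, 87.2% and 81.6% of the 18522 genes tested in the table exceeded 3 counts in the same libraries. These shares cover only genes with 10 or more counts, a minimum that 24 of the 39 subunit genes passed, so 24 is the like total. Of the subunit genes that did not pass it, only Gria1 exceeded 3 counts in a library, with 4 in mouse 3. At 1 CPM or more stood 3, 5, 16 and 12 subunit genes, all among the 24 tested. Of all tested genes, 65.7%, 64.4%, 73.9% and 70.0% reached that level. At 10 CPM or more stood 1, 0, 6 and 6 of the 24, and 46.8%, 45.7%, 49.5% and 47.6% of all tested genes. More of the subunit genes were thus counted in mice 3 and 4 than in mice 1 and 2, whose libraries were the 2 deepest. All 39 genes summed to 20.9, 2.47, 52.5 and 27.1 CPM per kb of exons, with 19.5 of the 20.9 in mouse 1 from Glrb. Without Glrb, the length-scaled levels of the other 38 genes summed to 1.38, 2.21, 14.3 and 22.6 CPM per kb.

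The GABA-A genes with the most counts were Gabra4 and Gabrb1. Gabra4, the alpha4 subunit known from extrasynaptic receptors, had 0, 0.0107, 7.97 and 44.2 CPM in mice 1, 2, 3 and 4. Gabrb1, the beta1 subunit, had 0, 0.813, 13.3 and 22.4 CPM. Both were highest in mouse 4, absent from the counts of mouse 1, and far higher in mouse 3 than in mouse 2. Gabra4 averaged 13.1 ± 21.1 CPM and Gabrb1 9.14 ± 10.8 CPM (SD, n = 4 each), so the spread between mice exceeded both means.

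Gabra4 and Gabrb1 stand head to head on chromosome 5 in GENCODE M21 on GRCm38. Gabra4 lies on the minus strand at chr5:71569749-71658308 and Gabrb1 on the plus strand at chr5:71658113-72149037. The gene spans overlap by 196 bases, of which 46 are exonic in both, and since the library does not keep the strand, reads from those bases cannot be assigned. On the same side of the cluster, Gabra2 ends 474 kb from Gabra4, and Gabrg1 ends 115 kb from Gabra2. These 4 clustered genes did not share 1 pattern: Gabra2, Gabra4 and Gabrb1 were higher in mice 3 and 4, while Gabrg1 was counted in mouse 3 alone.

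Gabra2, the alpha2 subunit of many synaptic receptors, had 0, 0.0107, 2.90 and 5.18 CPM. Gabra3, the alpha3 subunit, had 0, 0, 0.0116 and 12.9 CPM, that is 1161 counts in mouse 4 and 1 count elsewhere. Alpha subunits were therefore found beyond the limit of 3 counts in mice 3 and 4 only. On the scale of CPM per kb of exons, Gabra4 made 77.4% of the alpha total in mouse 3 and 64.7% in mouse 4. With the median length of coding transcripts in place of all exons, its share was 86.9% and 76.6%. Gabra3 took 29.3% of the alpha total in mouse 4 but 0.174% in mouse 3.

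Among the subunits that complete the pentamer, the gamma genes changed place between mice. Gabrg1, the gamma1 subunit, had 7.42 CPM in mouse 3 and no count in mice 1, 2 and 4. Gabrg3, the gamma3 subunit, had 0, 0, 1.46 and 4.61 CPM. Gabrg1 made 88.3% of the length-scaled gamma, delta and epsilon total in mouse 3, whereas Gabrg3 made all of it in mouse 4. Gabrb2, the beta2 subunit, gave 47 counts in mouse 3 (0.545 CPM) and none elsewhere. Gabrd, whose delta subunit is the usual extrasynaptic partner of alpha4 in forebrain, had no count in any library, and Gabre, the epsilon subunit, had 1.

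**Figure D2:**
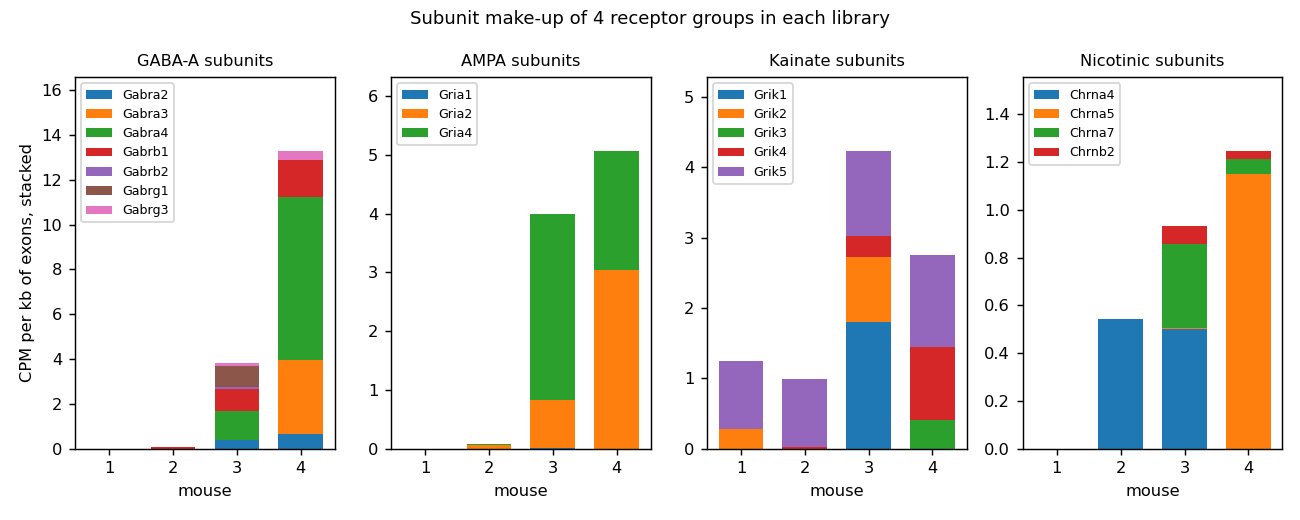
Stacked length-scaled levels (CPM per kb of exons, linear axes that differ between panels) of GABA-A, AMPA, kainate and nicotinic subunits in the 4 libraries. Gabra4 forms the largest GABA-A block in mouse 4, and the kainate stack is the one with substantial height in every mouse.

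Glrb, the glycine receptor beta subunit, had the highest level of all 39 genes in mice 1 and 3. Its level was 90.9, 1.19, 178 and 21.1 CPM in mice 1, 2, 3 and 4, with 9816, 111, 15342 and 1896 counts. It was high in mice 1 and 3, lower in mouse 4 and lowest in mouse 2, and all 4 counting intervals were apart. The mean was 72.8 ± 79.9 CPM (SD, n = 4). Summed oligodendrocyte markers were 15065, 238, 19260 and 459 CPM and summed astrocyte markers 1253, 161, 1348 and 301 CPM in the same mice. All 10 oligodendrocyte markers were higher in both mice 1 and 3 than in mice 2 and 4, as Glrb was. The same held for 3 of 10 astrocyte markers, 3 of 10 neuron markers and 18.1% of all tested genes. Uchl1, 1 of these neuron markers, had 78.6, 4.01, 272 and 66.7 CPM. Aldoc and S100b made most of the astrocyte sum in mice 1 and 3, while Gfap was highest in mouse 2 and Aqp4, Gja1 and Sox9 in mouse 4. The part of these cell types in the Glrb level was not tested.

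Glra1, the alpha1 subunit that forms the adult glycine receptor of the cord with beta, had 0, 1.22, 1.38 and 0.357 CPM. Mouse 1, where Glrb had 90.9 CPM, thus held no count of Glra1, and neither Glra2 nor Glra3, the alpha2 and alpha3 subunits, was counted in any mouse. On the length-scaled level, Glrb made 98.5% of the glycine total in mouse 3 and 96.8% in mouse 4. In mouse 2 it made 33.6% by exon length and 59.7% by transcript length, so which of the glycine subunits was higher there depended on the length used.

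Among AMPA subunits, Gria2 and Gria4 carried nearly all counts. Gria2, whose RNA-edited form keeps calcium out of the channel, had 0, 1.11, 12.7 and 47.4 CPM. Gria4, the GluA4 subunit of fast channels, had 0, 0.0107, 20.0 and 12.7 CPM. Both were uncounted in mouse 1 and above 10 CPM in mice 3 and 4. Gria4 made 79.4% of the length-scaled AMPA total in mouse 3 and Gria2 60.3% in mouse 4. With transcript length these shares were 68.1% for Gria4 and 73.3% for Gria2, so the gene in the lead in each mouse was the same by both lengths. Gria1, the GluA1 subunit, had 4 counts and Gria3, the GluA3 subunit, had 2.

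Gria2 and Glrb are neighbours on the minus strand of chromosome 3, at chr3:80681450-80802835 and chr3:80843599-80913660, with 40.8 kb between them. Their levels nevertheless ran differently: mouse 1 had 9816 counts of Glrb and none of Gria2, and Gria2 was highest in mouse 4 but Glrb in mouse 3. The 250 bases before the RefSeq start of each gene are shown because these neighbours had unlike patterns, and that of Chrna5 because it was counted almost wholly in mouse 4 and holds the motif described next. They come from RefSeq's promoter table on GRCm38.p6, read 5′ to 3′ on the gene's strand, and overlap no annotated exon. Capitals mark AGATAA, a sequence bound by GATA factors, which belong to the CSF-cN markers.

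Gria2 (chr3:80802836-80803085, minus strand): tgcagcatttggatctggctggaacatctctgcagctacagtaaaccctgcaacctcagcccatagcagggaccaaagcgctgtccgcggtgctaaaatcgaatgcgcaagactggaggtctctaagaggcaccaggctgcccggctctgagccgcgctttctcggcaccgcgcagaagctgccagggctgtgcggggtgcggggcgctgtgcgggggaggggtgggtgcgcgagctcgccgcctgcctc
Glrb (chr3:80913661-80913910, minus strand): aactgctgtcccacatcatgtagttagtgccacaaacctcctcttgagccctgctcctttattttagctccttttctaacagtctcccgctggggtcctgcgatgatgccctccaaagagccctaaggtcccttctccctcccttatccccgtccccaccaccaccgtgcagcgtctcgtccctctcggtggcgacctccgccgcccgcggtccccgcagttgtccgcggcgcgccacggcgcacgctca
Chrna5 (chr9:54980630-54980879, plus strand): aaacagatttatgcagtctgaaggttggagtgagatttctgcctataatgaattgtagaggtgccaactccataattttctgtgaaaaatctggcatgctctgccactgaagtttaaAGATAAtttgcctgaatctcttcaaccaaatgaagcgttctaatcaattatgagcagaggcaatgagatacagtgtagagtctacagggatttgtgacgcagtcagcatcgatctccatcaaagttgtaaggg

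The windows of Gria2 and Glrb were rich in G and C, at 64.8% and 62.4%, with 19 and 20 CG pairs, whereas the Chrna5 window shown had 40% and 3 CG pairs. RefSeq lists a second Chrna5 start, whose window (chr9:54981238-54981487) had 65.2%, 17 CG pairs and no match to the motif. The motif AGATAA, searched on both strands in windows that also took in 50 bases after the start, was found in 2 of the 32 windows of the 27 members that the table holds (6.25%). In the whole table, 3672 of 32851 windows held it (11.2%). The windows with it belonged to Chrna5 and Grin2d, and a match describes the letters only.

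NMDA subunits were sparse. Grin1, the GluN1 subunit that every NMDA receptor needs, had 0.620, 0, 6.89 and 0.0780 CPM, or 67, 0, 594 and 7 counts. It passed 1 CPM in mouse 3 alone, and of its possible partners only Grin2d, the GluN2D subunit, exceeded 3 counts there. Grin2d stayed low but was counted in every mouse, at 0.444, 0.203, 0.649 and 0.646 CPM. Grin2a, the GluN2A subunit, had 33 counts in mouse 4 and 2 in mouse 2, and Grin2b, the GluN2B subunit, had 1, 2, 2 and 6 counts. Grin2c, the GluN2C subunit, had no count, and Grin3a, the GluN3A subunit, had 1. Exons of Grin1 share 1307 bases with the antisense gene Grin1os, which itself had 2 counts.

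Among kainate receptor genes, Grik5 was even across the mice. Grik5, the GluK5 subunit, had 5.00, 5.02, 6.19 and 6.76 CPM, with 540, 469, 534 and 607 counts. It averaged 5.74 ± 0.879 CPM (SD, n = 4), a coefficient of variation of 15.3%, and its highest value was 1.35 times its lowest. No other of the 24 tested members stayed within 1.5 times between mice, against a background of 8.08% of all tested genes. Its range was narrow although the CSF-cN marker sum was 12.9 to 20.3 CPM in mice 1 and 2 and 846 to 941 CPM in mice 3 and 4. The only other members above 3 counts in every mouse were Glrb and Grin2d, where 62.6% of all tested genes met that count.

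The possible partners of GluK5 differed by mouse. Grik2, the GluK2 subunit, had 3.69, 0, 12.1 and 0 CPM, and Grik1, the GluK1 subunit, had 0, 0, 12.1 and 0.0223 CPM. Grik3, the GluK3 subunit, had 0, 0, 0.0116 and 3.68 CPM. So mouse 1 held Grik2, mouse 3 held both Grik1 and Grik2, and mouse 4 held Grik3, while in mouse 2 none of Grik1, Grik2 and Grik3 had a count. Grik4, the GluK4 subunit, had 0, 0.128, 1.83 and 6.15 CPM. Grik5 made 77.7%, 97.8%, 28.3% and 47.5% of the length-scaled kainate total. In mouse 3, Grik1 led with 42.7% by exon length, but Grik2 led with 42.3% by transcript length.

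**Figure D3:**
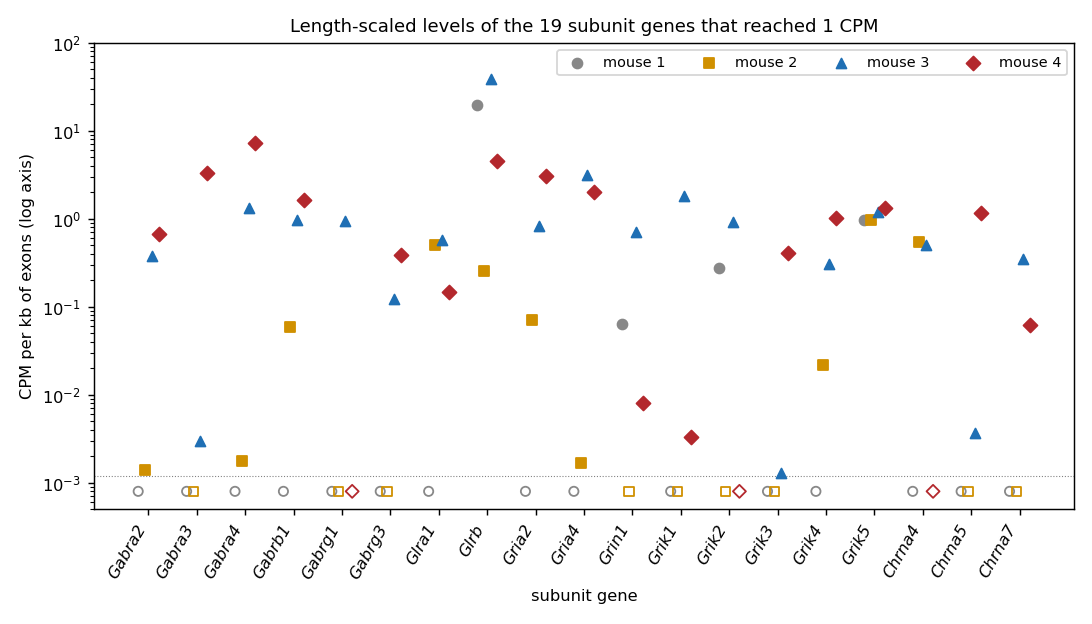
Length-scaled levels (CPM per kb of exons, log axis) of the 19 subunit genes that reached 1 CPM in at least 1 mouse, with filled symbols for the libraries of mice 1 to 4 and open symbols below the dotted line for no count. The 4 symbols of Grik5 lie together between 0.968 and 1.31 CPM per kb, while those of Glrb spread between 0.255 and 38.2.

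Nicotinic subunits were found at low levels and in different mice. Chrna4, the alpha4 subunit of the common brain receptor, had 0, 2.73, 2.52 and 0 CPM. Its usual partner Chrnb2, the beta2 subunit, had 0, 0, 0.614 and 0.256 CPM, and Chrnb4, the beta4 subunit, had 2 counts in all. Mouse 2 therefore held 255 counts of Chrna4 and none of Chrnb2 or Chrnb4. Exons of Chrnb2 share 1365 bases with Adar on the other strand. Adar had 3963 and 3322 counts in mice 1 and 2, where Chrnb2 had none. Reads from the shared bases cannot be assigned without strand.

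Chrna7, the alpha7 subunit that forms receptors by itself, had 0, 0, 1.59 and 0.279 CPM. Chrna5, an accessory subunit, had 0, 0, 0.0116 and 3.60 CPM, and its 323 counts in mouse 4 made 92.6% of the length-scaled nicotinic total there. Chrna3, 2.33 kb away on the other strand, and Chrnb4 beyond it form a gene cluster with Chrna5 on chromosome 9, and neither gave more than 2 counts. Chrna2, Chrna6, Chrnb3 and the serotonin receptor gene Htr3a had none.

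Read by mouse, 16 of the 24 tested subunit genes were higher in both mice 3 and 4 than in mice 1 and 2. Among all tested genes, 18.9% had that pattern. With more than 3 counts also required in both mice, 11 were left, against 17.4% of all tested genes. The 5 that dropped out were Gabra3, Grik3 and Chrna5, with 1 count in mouse 3, Grik1, with 2 counts in mouse 4, and Grin2b. The 11 were Gabra2, Gabra4, Gabrb1, Gabrg3, Gria2, Gria4, Grin2d, Grik4, Grik5, Chrna7 and Chrnb2, of which Grik5 differed by only 1.35 times over the mice. Glrb, Grin1 and Grik2 were higher in mice 1 and 3 (background 18.1%), Glra1 and Chrna4 in mice 2 and 3 (10.9%), and Grin2a, with 2 counts in mouse 2, in mice 2 and 4 (18.1%). No tested member was higher in mice 1 and 2 (14.7%) or in mice 1 and 4 (9.65%). Most of the 24 passed the minimum of 10 counts through mice 3 and 4 alone and could hardly be higher in mice 1 or 2. The shares of all tested genes are therefore given for scale only. These pairs of mice were formed from values after the fact and describe the libraries, so no test of them was made.

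All 8 counted CSF-cN markers were likewise higher in mice 3 and 4, and so were 6 of 10 neuron markers, whose sums were 134, 90.3, 1124 and 393 CPM. The 8 ependymal markers summed to 0, 0.524, 11.8 and 79.1 CPM, with 4 of them higher in mice 3 and 4. The 6 markers of oligodendrocyte precursors summed to 0.0185, 0, 10.4 and 3.73 CPM, of which Lhfpl3 alone gave 9.86 and 3.69 CPM in mice 3 and 4, with Pdgfra, Gpr17 and Neu4 at no count. The part of these cell types in the subunit levels was not tested.

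**Figure D4:**
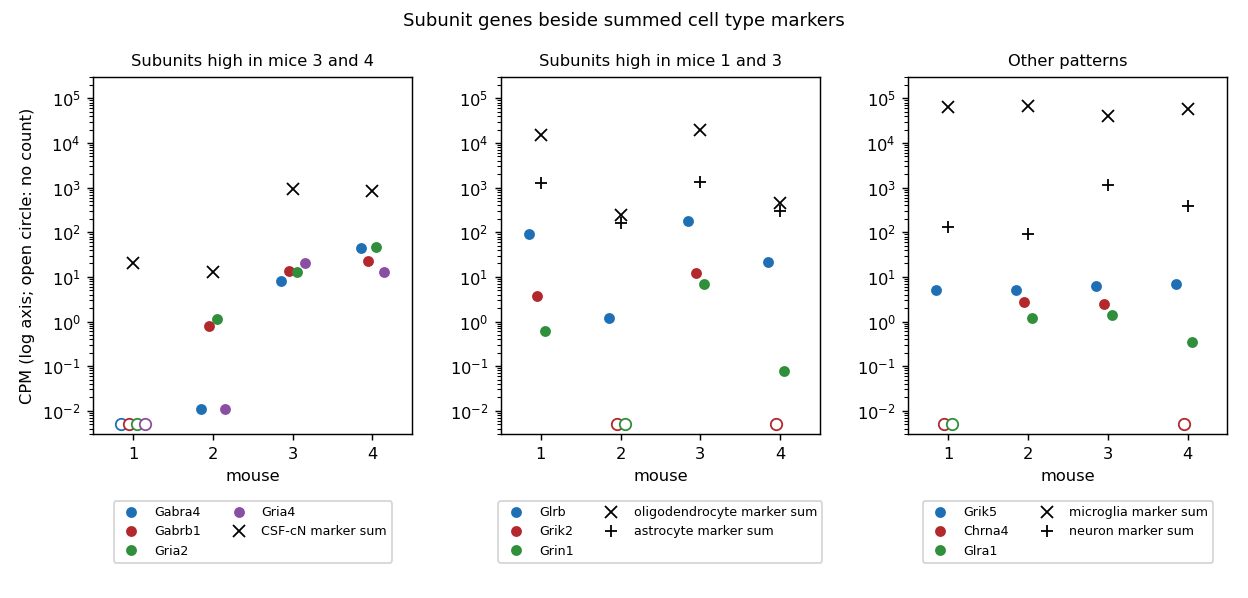
CPM (log axis) of selected subunit genes (filled circles, open circles for no count) beside summed cell type markers (crosses and plus signs) in the libraries of the 4 mice. Gabra4, Gabrb1, Gria2 and Gria4 lie highest in mice 3 and 4, where the CSF-cN marker sum is 846 to 941 CPM, Glrb lies highest in mice 1 and 3 beside the oligodendrocyte sum, and Grik5 stays level.

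More than 3 counts in a single mouse were found for 8 of the 24 tested members, against 14.1% of all tested genes. Gabrb2, Gabrg1 and Grik1 were those of mouse 3 (background 6.09%), and Gabra3, Grin2a, Grin2b, Grik3 and Chrna5 those of mouse 4 (3.44%). Mouse 1 alone and mouse 2 alone accounted for no tested member (2.32% and 2.22%). In mouse 1, 18 of the 24 tested members had no count (18.9% of all tested genes). Here too, most of the 24 passed the minimum for testing through mice 3 and 4 alone, so these counts only describe the libraries. None of the 24 was highest in mouse 1, where 21.7% of all tested genes were, while 1, Chrna4, was highest in mouse 2, 11 in mouse 3 and 12 in mouse 4 (25.5%, 29.5% and 23.2% of all tested genes).

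Levels were tested against 10 CPM with edgeR's quasi-likelihood test over all 18522 genes with 10 or more counts, with Benjamini-Hochberg adjustment at 0.05. Glrb was the 1 member of 24 tested that was called above 10 CPM, where 36.7% of all tested genes were called. Its log2 level relative to 10 CPM was 2.86 (SE 0.58, adjusted p = 0.0074), and its value exceeded 10 CPM in 3 of 4 mice. Without mouse 3 the Glrb call ended (log2 level 1.90, adjusted p = 0.13), and without any other single mouse its adjusted p was 6.7e-04 to 0.042. Grin2b was the 1 member called below 10 CPM (log2 level -8.37, SE 2.24, adjusted p = 0.026), against 0.664% of all tested genes. It rests on 11 counts in all: without mouse 1 the log2 level was -8.04 (adjusted p = 0.087), and without mouse 2, 3 or 4 the gene fell under the minimum of 10 counts and was not tested. By other tools, limma-voom called 0 members above (35.9% of all tested genes) and 17 below (33.3%), and DESeq2 called 1 above, Glrb (33.2%), and 4 below, Gabrb2, Grin2a, Grin2b and Chrnb2 (11.0%). The median log2 level was -2.42 for the 24 tested members and -0.07 for all tested genes.

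The other 22 members tested were called in neither direction. Gria2 gave a log2 level of 0.61 (SE 1.23, adjusted p = 0.68), Gabra4 0.38 (SE 1.51, adjusted p = 0.84) and Grik5 -0.80 (SE 0.62, adjusted p = 0.33), all from edgeR. Against the lower level of 1 CPM, 6 members were called above, and 59.1% of all tested genes were. None was called below it by edgeR (0.0324% of all tested genes), 1 at an unadjusted p under 0.05. The 6 were Glrb (adjusted p = 2.3e-06), Grik5 (0.0013), Gria2 (0.0033), Gabra4 (0.012), Gabrb1 (0.016) and Gria4 (0.042). With the libraries of mice 1 and 2 left out, which had little of the transgene, Glrb (log2 level 3.38, adjusted p = 0.0046) and Gria2 (1.65, adjusted p = 0.047) were called above 10 CPM, against 37.0% of the genes tested in the libraries of mice 3 and 4. None of the 23 members tested there was called below (background 0.0%). This fit rests on 2 libraries, and the 2 left out were those where Gria2 was lowest, at 0 and 1.11 CPM.

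Within a mouse, 12 pairs of subunits of like role were compared by the log2 ratio of CPM per kb plus 0.1, and each ratio was tested by flipping its signs (exact permutation test, two-sided). With 4 mice this test has 16 sign patterns and cannot give a p below 0.125, so no ratio could pass 0.05. The 4 pairs with a gene that had no count anywhere are not read. By exon length, Grik5 over Grik2 was the 1 ratio of the other 8 that was positive in every mouse, at 1.5, 3.42, 0.35 and 3.82. Its mean was 2.27 ± 1.63 (SD, n = 4, exact p = 0.125, adjusted p = 0.43 over the 12 pairs). In mouse 3 its direction depended on the length: Grik5 had 1.64 and Grik2 4.26 CPM per kb of median coding transcript, and without length scaling 6.19 and 12.1 CPM. With either of these scales the exact p was 0.375.

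Gria2 over Gria1 was 0, 0.78, 3.09 and 4.98 in log2, with a mean of 2.21 ± 2.26 (exact p = 0.25). Gabrb1 over Gabrb2 was 0, 0.67, 2.52 and 4.11, with a mean of 1.82 ± 1.86 (exact p = 0.25). These were positive in 3 mice and 0 in mouse 1, which had no count of either gene. Gabrg1 over Gabrg3 was 0, 0, 2.23 and -2.28, so mice 3 and 4 went opposite ways (exact p = 1). Chrna4 over Chrna7 was 0, 2.69, 0.41 and -0.69 (exact p = 0.75), and Gria4 over Gria3 was 0, -0.01, 5.03 and 4.40 (exact p = 0.5). Grin2b over Grin2a averaged -0.05 ± 0.12 and Chrnb2 over Chrnb4 0.27 ± 0.37, with exact p = 0.875 and 0.5.

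Genes that anchor, assemble or traffic these receptors were read with the same test, in which 36.7% of all tested genes were called above 10 CPM and 0.664% below. Of 17 anchoring and scaffold genes, 16 were tested and 2 were called above 10 CPM: Gphn, the gephyrin that binds the glycine beta subunit, and Dlg1, a scaffold of glutamate receptors. Gphn averaged 39.2 ± 14.3 CPM (edgeR adjusted p = 1.7e-04) and Dlg1 24.1 ± 7.50 CPM (edgeR adjusted p = 0.0055; SD, n = 4 each). Of 8 trafficking and RNA editing genes, all tested, 6 were called above, namely Gabarap, Gabarapl1, Gabarapl2, Nsf, Adar and Fmr1. The related genes Adarb1 and Adarb2 were called in neither direction. Adarb1 had 0.278, 2.23, 1.81 and 6.83 CPM (edgeR adjusted p = 0.28). Of 20 auxiliary and assembly genes, 18 were tested. Clptm1, which limits GABA-A receptor assembly, was called above at 170 ± 19 CPM (SD, n = 4) and Shisa6 below. The Shisa6 call (edgeR adjusted p = 0.027) rests on only 5, 5, 1 and 3 counts in mice 1, 2, 3 and 4. Ric3, a chaperone of nicotinic receptors, had 0.222, 16.3, 29.5 and 37.1 CPM, and Cnih2, an AMPA receptor auxiliary subunit, had 0.00926, 0.0107, 16.9 and 17.7 CPM.

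The 15 metabotropic receptor genes for the same transmitters, which act through G proteins, were sparse, and 8 of them had enough counts to be tested. None of the 8 was called in either direction by edgeR at an adjusted or an unadjusted p under 0.05, against the same 36.7% above and 0.664% below. Their summed levels were 24.5, 5.05, 88.4 and 34.4 CPM, while the 39 subunit genes summed to 101, 12.5, 290.2 and 193 CPM. Grm4 had 17.5, 0.0107, 19.8 and 0.0223 CPM, high in mice 1 and 3 as Glrb was. Grm7 had 0.00926, 0, 15.9 and 19.4 CPM, high in mice 3 and 4 as Gabra4 and Gria2 were. Gabbr1 had 6.38, 2.47, 13.3 and 12.8 CPM and alone of the 15 passed 1 CPM in every mouse. Of the 8 tested, 2 were higher in mice 1 and 3 and 3 in mice 3 and 4. Among all tested genes, these patterns had shares of 18.1% and 18.9%.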

How the data were processed

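RNA of 50 sorted cells per mouse was made into cDNA with SMART-Seq v4 and 11 PCR cycles and into Nextera XT libraries, per the labels' protocols. The authors deposited a table of gene counts in whole numbers, with 2 columns per mouse, and a table of log2 values. FastQC, Trim Galore, STAR, RSEM, DESeq2 and build mm10 are listed in the submitters' processing notes; the sources used here give no roles, versions, annotation or rounding. Column numbers were taken as mouse numbers. The 2 columns of a mouse had Spearman correlations of 0.968 to 0.984 and differed by more than counting error (mean chi-square 1.94 to 2.19 per gene). They were taken as repeat runs and summed, giving n = 4. From the values, the deposited log2 table equals log2 of the summed counts over size factors of 0.936 to 1.18, plus 1; subunit ratios were also taken from it, as an alternative.

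CPM used edgeR 4.0.16 (R 4.3.3) with TMM factors of 0.935 to 1.05. Levels were tested with edgeR's quasi-likelihood F test in a model with an intercept alone, offset so that an intercept of 0 is 10 CPM, and checked on simulated data. The SE of a level was worked back from its test, as the absolute log2 level over the square root of F. It therefore depends on the level tested: for Glrb it was 0.58 against 10 CPM and 0.32 against 1 CPM. Genes under 10 counts were not tested. Lengths are exon unions of GENCODE M21 on GRCm38 (mm10). Values at or above 1 CPM among the 19 named members had exact 95% (Clopper-Pearson) half-widths of 1.59% to 19.7% of the value. Without molecular identifiers, intervals and the limit of 3 counts cover counting error only. Alternatives, with DESeq2 1.42.0 and limma 3.58.1 among them, are given in the closing section.

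The members and lists were chosen with earlier results of these data known. Values in every mouse are given for each member that reached 1 CPM in at least 1 mouse. From each other list only some genes are named. An item of the lists is not reported here by name. The negative-control preparation was not analysed here.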

Additional observations from a re-analysis of the deposited data

Results flagged for a closer look

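In 5 of the 19 members that reached 1 CPM, a single library stood far from the other 3 on the log2(CPM + 1) scale. The measure is the gap to the nearest other library divided by the whole range, set against Dixon's 95% critical value for 4 samples. Gabra3 in mouse 4 (12.9 CPM) gave 0.996, and Gabrg1 in mouse 3 (7.42 CPM) gave 1. Grik1 in mouse 3 (12.1 CPM) gave 0.991. Grik3 in mouse 4 (3.68 CPM) gave 0.993, and Chrna5 in mouse 4 (3.60 CPM) gave 0.992. Every one of these libraries was the high one, and at most 2 counts stood in each of the other 3. For values of normal spread, about 1 in 20 groups would be picked out in this way by chance. That rate does not hold for counts with many zeros, and genes counted in 1 library only meet the criterion by construction. The share of all tested genes that meet it was not computed. These 5 are among the 8 tested members above 3 counts in a single mouse, as were 14.1% of all tested genes.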

How the results depend on the processing

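The count of members called above 10 CPM was 1. It was 6 against 1 CPM, 0 with limma-voom, 2 without mice 1 and 2, and 0 to 1 with 1 mouse left out (0 without mouse 3). The count below 10 CPM was 1. It was 0 against 1 CPM, with either run alone and without mice 1 and 2, 4 with DESeq2, 17 with limma-voom, 6 without the count filter, and 0 with any mouse left out; Grin2b, the member called below, had too few counts to be tested with either run alone, without mice 1 and 2, or without mouse 2, 3 or 4. DESeq2 gave no adjusted p for 12 of the 24 tested members. With limma-voom the log2 level of Glrb was 1.35 (adjusted p = 0.24). Signs of levels turned for Gabra4 (-4.81 with limma-voom, -1.94 to 0.83 with 1 mouse left out), Gria2 (-3.21 with limma-voom, -1.15 to 1.06), Gabrb1 (0.90 without mice 1 and 2, -1.12 to 0.32) and Gria4 (0.77 without mice 1 and 2, -1.26 to 0.16). Signs of mean log2 ratios turned for Gabrg1 over Gabrg3 (0.080 with a pseudocount of 1, 0.018 with run 2 alone, -0.76 to 0.74 with 1 mouse left out), Grin2b over Grin2a (0.030 by transcript length, -0.077 to 0.0047) and Chrna4 over Chrna7 (-0.14 without mice 1 and 2, -0.10 to 1.03). The cause was not tested. For levels of single members DESeq2, limma-voom and no filter, for ratios transcript length, and for ratios and counts per mouse single runs were chosen after seeing the data. No paired analysis was possible because the mice form a single group, so no groups share replicate numbers (the subunit ratios are paired within a mouse). By counting error alone, depth does not limit the uncounted genes beyond 0.00795 CPM over the 4 libraries. That value does not cover transcripts of the sorted cells that never entered a library, and 4 mice limit every test.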
